A study of Mus musculus with 5 samples.

Results

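Lung monocytes were examined in a single-cell RNA sequencing experiment on mouse lungs that carried metastases of 4T1 cells, a mammary carcinoma line of BALB/c mice. Members were the cells that the authors placed in the Monocyte-Derived class and whose cell type name contained "Mono". This rule found 847 monocytes among 22118 annotated lung cells in 5 libraries. The cell table held 23852 cells of these libraries, and those the authors called doublets or unknown were left out.

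All mice were female BALB/c and all received 25000 4T1 cells intravenously. These cells expressed CD90.1, a variant of the surface protein Thy1 that served as a tag. Before that, they had been given 3 injections per week for 3 weeks, from an age of 6 weeks, of either control medium (CM) or medium holding tumor-secreted factors (TSF), which was conditioned by 4T1 tumor tissue. Lungs were taken 11 days after the cancer cells, a stage called metastatic seeding, when the mice were 10 weeks old. They were also taken after 16 days, called metastatic colonization, when the mice were 11 weeks old. The 4 groups were CM day 11, TSF day 11, CM day 16 and TSF day 16, and no group was free of cancer cells or of injected medium. Dissociated lungs of 3 mice were pooled per group, so that the 2 libraries of TSF day 11, a and b, may be captures of the same pool. Day, age and library cannot be told apart, and neither can treatment and library.

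Monocytes are myeloid cells made in the bone marrow that enter tissues from the blood. In mice, classical monocytes carry Ly6C (encoded by Ly6c2) and Ccr2, the receptor for the chemokine Ccl2, while patrolling monocytes carry little Ly6C and much Cx3cr1, the receptor for Cx3cl1. In the lung, recruited monocytes can mature into interstitial macrophages and dendritic-like cells, whereas alveolar macrophages mostly maintain themselves. Plac8 is another gene typical of classical monocytes. In the authors' annotation the same class held alveolar macrophages (Alv Macro), M2 macrophages (M2 Macro) and a joint group of M1 macrophages and dendritic cells (M1 Macro/DC).

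The label could not be checked here. Transcript levels of monocytes were not analysed here, so that Ly6c2, Ccr2, Plac8 and Cx3cr1 could not be measured in the 847 cells. All 4 of these markers were among the variable genes that the authors used for clustering. On the authors' two-dimensional map, the monocytes lay together, at a median position of 0.970 and 0.233 (UMAP coordinates, no unit). The medians of the other types of the class lay at 0.964 and 0.414 for M1 Macro/DC, 1.13 and 0.449 for M2 Macro and 1.95 and 0.808 for Alv Macro. The authors clustered cells on this map and named types by cluster, so these positions were no check of the label.

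Libraries held 13240822 to 21451787 unique molecular identifiers (UMIs, 1 per captured transcript), with medians of 2235.5 to 2721 UMIs per cell. Among annotated cells without granulocytes, medians were 2287 in CM day 11 and 2189 and 2260 in TSF day 11 a and b. They were higher at day 16, at 2788 in CM and 2603 in TSF. The TSF day 16 library stood apart in its granulocytes, which made up 29.1% of annotated cells against 4.47% to 6.00% in the other 4 libraries. Each monocyte share is therefore given also with granulocytes left out. Between libraries a and b of TSF day 11, the differences were within sampling noise for the cell classes (chi-square 10.97 with 11 degrees of freedom, p = 0.445) and for the 4 types of the class (chi-square 1.51 with 3 degrees of freedom, p = 0.680). They were counted as 1 sample, by their mean. No group was replicated, so no test between groups was made. Intervals are at the 95% level and cover counting error only, not differences between mice. Between 14 and 46 cell barcodes recurred in each of the 10 pairs of libraries, and in none of these pairs was a recurring barcode a monocyte in both.

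At day 16, monocytes were more frequent in TSF lungs than in CM lungs, and this difference was larger once granulocytes were left out. In CM day 16, 84 of 3567 annotated cells were monocytes, or 2.35% (1.88% to 2.91%). In TSF day 16 there were 174 of 4896, or 3.55% (3.05% to 4.11%). The share in TSF was 1.51 times that in CM (1.16 to 1.98). With granulocytes left out, the shares were 2.51% (2.00% to 3.09%) in CM and 5.01% (4.31% to 5.79%) in TSF. Their ratio was then 2.00 (1.53 to 2.63), and the intervals of the 2 shares did not overlap on either denominator.

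The choice of denominator set the size of this difference. The ratio was 2.07 when cancer cells were also left out and 1.99 among immune cells without granulocytes. Among all immune cells, granulocytes included, it was 1.22 with an interval of 0.934 to 1.601 that held 1. Of the 21 annotated cell types, 19.0% had an interval above 1 for TSF over CM at day 16, and with granulocytes left out this held for 26.3% of the 19 remaining types. Monocytes had rank 4 from the highest among the 21 types, after neutrophils, cancer cells and M2 Macro. They had rank 3 among the 19, after cancer cells and M2 Macro.

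At day 11, monocyte shares of TSF and CM lungs differed by less than the counting error. CM day 11 held 173 monocytes among 3738 cells, or 4.63% (3.98% to 5.35%). TSF day 11 library a held 228 of 5113, or 4.46% (3.91% to 5.06%), and library b held 188 of 4804, or 3.91% (3.38% to 4.50%). The mean of a and b was 4.19%, which was 0.905 times the CM share (0.757 to 1.09). Leaving granulocytes out gave 4.84% in CM and 4.67% and 4.12% in libraries a and b, with a ratio of 0.907 (0.760 to 1.09). The interval allows a TSF share up to 1.09 times that of CM at day 11, and the interval of the ratio at day 16 starts at 1.16, but the change between days was not tested. The ratio of library a to library b was 1.14 (0.935 to 1.39), which may be the spread between captures of 1 pool and does not measure the spread between mice.

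**Figure D1:**
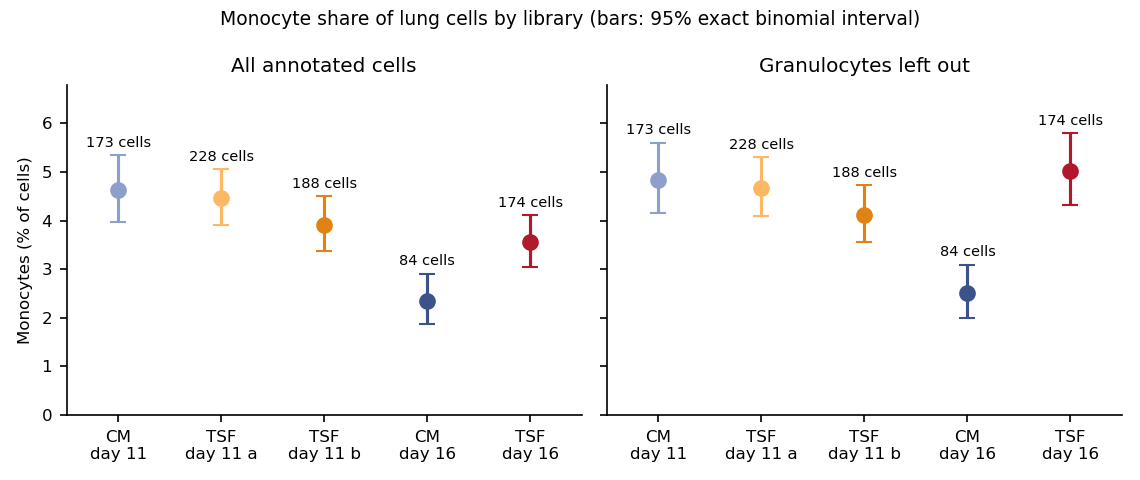
Monocytes as a percent of annotated cells (left) and of annotated cells without granulocytes (right) in each of the 5 libraries. Points are shares and bars are exact 95% binomial intervals. CM day 16 was the lowest library in both panels, at 2.35% and 2.51%, and TSF day 16 moved from 3.55% to 5.01%.

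The monocyte share was lower in CM day 16 than in CM day 11. Shares do not give the number of monocytes per lung, and the 2 libraries came from different mice. The CM share at day 16 was 0.509 times that at day 11 (0.387 to 0.664), and 0.517 times with granulocytes left out (0.394 to 0.675). For this comparison 23.8% of the 21 types had an interval below 1, and 26.3% of the 19 types. Monocytes stood 20th of 21 and 18th of 19 from the highest, with only ACT2 lower on both denominators. Other types of the class were also lower over all annotated cells. The ratio was 0.685 (0.497 to 0.939) for M2 Macro and 0.644 (0.430 to 0.954) for M1 Macro/DC. In TSF lungs the direction depended on the denominator. The day 16 share was 0.849 times the day 11 mean over all cells (0.706 to 1.01) and 1.14 times with granulocytes left out (0.948 to 1.36), both intervals holding 1. Within the Monocyte-Derived class the ratio was 0.935 (0.778 to 1.12), and among all immune cells, granulocytes included, it was 0.668 with an interval of 0.555 to 0.798 below 1. Against library a alone, the ratio over all cells was 0.797 (0.650 to 0.975).

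Within the Monocyte-Derived class, where neither granulocytes nor the lung's structural cells enter, CM day 16 again stood apart. Monocytes made up 33.0% of the class in CM day 11, 33.9% and 32.0% in TSF day 11 a and b, 21.2% in CM day 16 and 30.8% in TSF day 16. The CM day 16 interval, 17.2% to 25.5%, overlapped that of no other library. The TSF over CM ratio at day 16 was 1.46 (1.12 to 1.91), and the day 16 over day 11 ratio in CM was 0.641 (0.488 to 0.836). The lower share in CM day 16 was accompanied by a larger share of Alv Macro, the resident macrophages of the air spaces. They made up 50.9% of the class in CM day 16 and 31.2% to 38.1% in the other 4 libraries. Shares of the class sum to a fixed total, so a lower share of 1 type raises the others. Over all annotated cells, the Alv Macro ratio of day 16 over day 11 in CM was 1.20 (0.973 to 1.47), an interval that held 1.

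**Figure D2:**
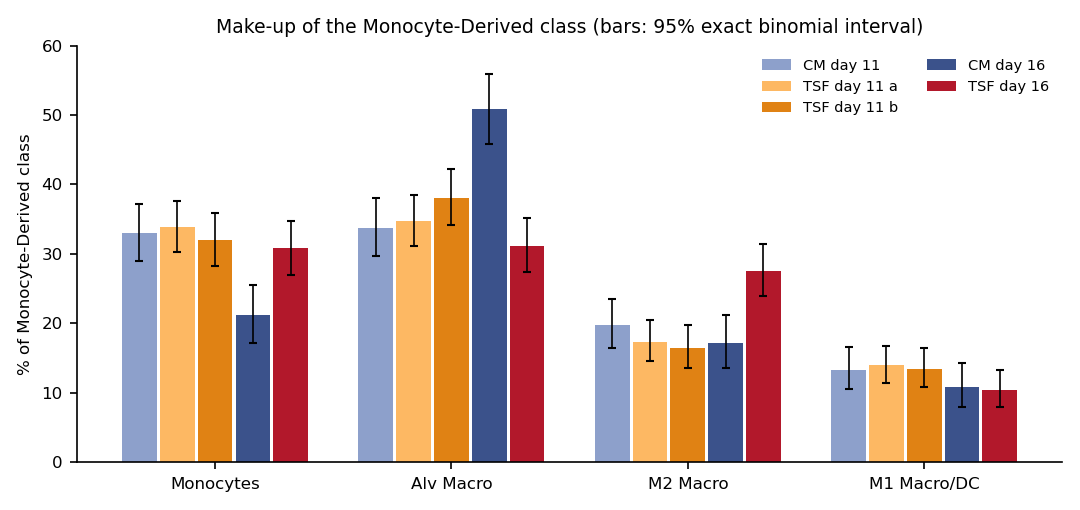
Make-up of the Monocyte-Derived class, as the percent of the class's cells held by each of its 4 types in each library, with exact 95% binomial intervals. Monocytes were lowest in CM day 16 at 21.2%, where Alv Macro reached 50.9%, and M2 Macro was highest in TSF day 16 at 27.6%.

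Counting monocytes against 1 other type at a time showed that the order of the libraries depended on that type. Per 100 Alv Macro there were 97.7 monocytes in CM day 11, 97.4 and 83.9 in TSF day 11 a and b, 41.6 in CM day 16 and 98.9 in TSF day 16. Only CM day 16 was low, and TSF exceeded CM 2.38-fold at day 16 (1.69 to 3.35). Per 100 M2 Macro, a name given to macrophages with a tissue-repair profile, there were 166 in CM day 11, 195 and 194 in TSF day 11 a and b, 124 in CM day 16 and 112 in TSF day 16. Here both day 16 libraries were lower than all 3 day 11 libraries. The TSF over CM ratio at day 16 was 0.903 (0.602 to 1.35), and the day 16 over day 11 ratio was 0.574 in TSF (0.433 to 0.760) and 0.743 in CM (0.488 to 1.13). Per 100 M1 Macro/DC the values ran from 195 in CM day 16 to 295 in TSF day 16. The TSF over CM ratio at day 16 was 1.51, and its interval, 0.914 to 2.48, held 1. The day 16 over day 11 ratio was 0.790 in CM (0.487 to 1.29) and 1.23 in TSF (0.859 to 1.76), both intervals holding 1.

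Against 6 types of cells outside the class, CM day 16 was the lowest library in 3 comparisons, TSF day 16 in 2 and TSF day 11 b in 1. There were 9.68 monocytes per 100 endothelial cells in CM day 16 and 15.5 to 26.7 in the other libraries. Per 100 T cells there were 13.4 in CM day 16 and 30.2 to 33.4 in the others, and per 100 B cells 19.5 in CM day 16 and 27.7 to 47.4 in the others. The TSF over CM ratios at day 16 were 2.76 (2.07 to 3.69) against endothelial cells, 2.48 (1.85 to 3.35) against T cells and 2.43 (1.79 to 3.30) against B cells. Neutrophils, the short-lived granulocytes that are recruited early in inflammation, gave the opposite picture. Per 100 neutrophils there were 115 monocytes in CM day 11, 105 and 86.2 in TSF day 11 a and b, 41.4 in CM day 16 and 12.4 in TSF day 16. Monocytes per neutrophil were thus lower in TSF than in CM at day 16, at a ratio of 0.299 (0.220 to 0.409). Cancer cells numbered 6 in CM day 11, 32 and 43 in TSF day 11 a and b, 29 in CM day 16 and 139 in TSF day 16. Monocytes per cancer cell at day 16 in TSF were 0.432 times those in CM (0.258 to 0.711). Against plasmacytoid dendritic cells (pDCs), rare cells that make type I interferon, the TSF over CM ratio at day 16 was 1.18 with an interval of 0.565 to 2.41 that held 1, and TSF day 11 b was the lowest library with 495 monocytes per 100 pDCs.

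The monocytes fell mainly into 5 of the authors' initial clusters, which are given by their numbers because the genes that set them apart were not analysed here. Clusters 9, 49, 42, 84 and 146 held 262, 212, 193, 137 and 39 monocytes, and 4 monocytes lay elsewhere. On the map, cluster 49 formed one end of the monocytes, cluster 84 lay at the lowest y values, and cluster 42 joined cluster 49 to the rest. The 5 clusters contained few other cells, which follows in part from types having been named by cluster. Of their 904 cells, 93.3% were annotated as monocytes, 24 were called doublets, 30 unknown and 7 were of another type. Cluster 42 held 22 of these doublets and 24 of the unknown cells, and clusters 49 and 146 held monocytes only. The doublet or unknown cells in these clusters came to 12.6 per 100 monocytes in TSF day 16 and to 3.95 to 5.78 in the other 4 libraries. Of the 4 monocytes elsewhere, 1 had 15119 UMIs and lay in cluster 138, whose most common type was plasmacytoid dendritic cells with 63 cells.

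**Figure D3:**
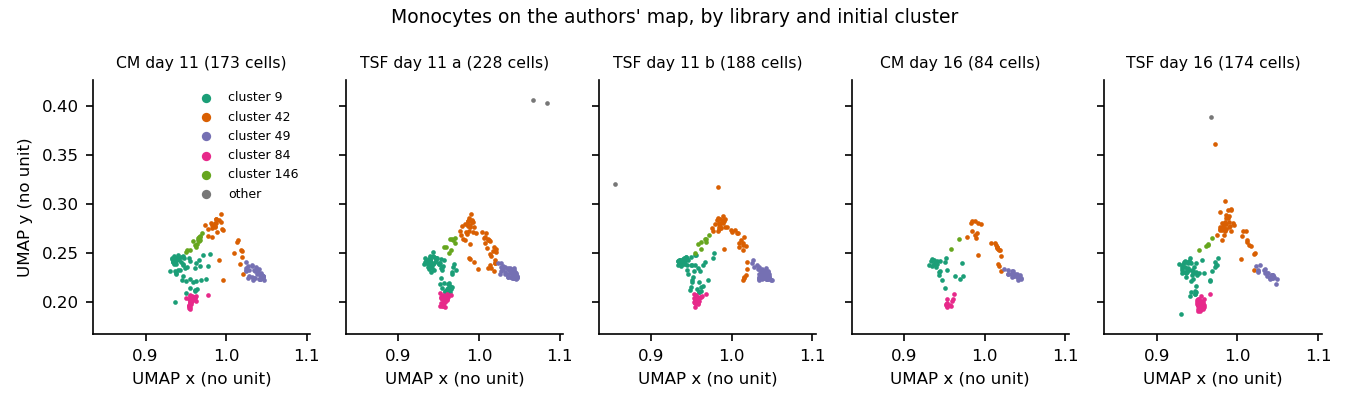
Position of every monocyte on the authors' two-dimensional map (UMAP x and y, no unit), with 1 panel per library and colors for the initial clusters. The same 5 clusters were filled in all 5 libraries, and the median position of cluster 49 was 1.04 on the x axis against 0.944 for cluster 9.

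Cluster 9 held 28.6% to 33.5% of the monocytes of every library, whereas clusters 84 and 49 held different shares in TSF day 16 than elsewhere. Cluster 84 made up 15.0% of monocytes in CM day 11, 13.6% and 12.8% in TSF day 11 a and b, 13.1% in CM day 16 and 25.9% in TSF day 16. The TSF day 16 library was the only high one. Its share was 1.97 times that of CM day 16 (1.01 to 4.23) and 1.96 times that of TSF day 11 (1.29 to 2.95). The lower bound at day 16 lay close to 1, and CM day 16 held only 11 monocytes of this cluster against 45 in TSF day 16. Cluster 49 made up 26.0% in CM day 11, 25.9% and 31.4% in TSF day 11 a and b, 27.4% in CM day 16 and 14.9% in TSF day 16. TSF day 16 was here the low library, at 0.522 times the TSF day 11 share (0.331 to 0.811) and 0.546 times the CM day 16 share, with an interval of 0.299 to 1.001 that just held 1. Intervals of these ratios treat the counts as rare and are wider than needed for shares of this size.

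Shares among monocytes sum to a fixed total, so the clusters were also counted against all annotated cells without granulocytes. Cluster 84 made up 0.728% of these cells in CM day 11, 0.635% and 0.526% in TSF day 11 a and b, 0.328% in CM day 16 and 1.30% in TSF day 16. Its TSF over CM ratio at day 16 was 3.95 (2.01 to 8.47). Cluster 49 was lower at day 16 in both treatments, with 1.26% in CM day 11, 1.21% and 1.29% in TSF day 11 a and b, 0.686% in CM day 16 and 0.749% in TSF day 16. Its day 16 over day 11 ratio was 0.544 in CM (0.314 to 0.919) and 0.599 in TSF (0.376 to 0.923), and its TSF over CM ratio at day 16 was 1.09 (0.599 to 2.00). The higher monocyte share of TSF lungs at day 16 was thus found in clusters 84, 9 and 42. The ratio was 2.09 (1.27 to 3.55) in cluster 9 and 1.81 (1.08 to 3.11) in cluster 42. The interval for cluster 49 held 1. In cluster 84, many of the TSF day 16 monocytes lay in a finer group held almost only by that library, as given below. Cluster 146 was too small for a comparison at day 16, with 2 and 5 cells.

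**Figure D4:**
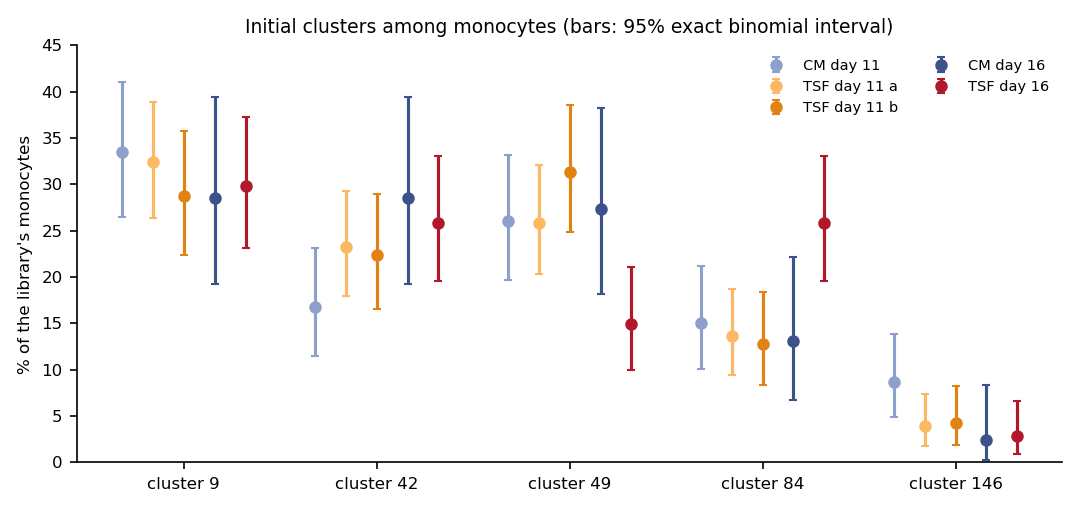
Percent of each library's monocytes in each of the 5 initial clusters, with exact 95% binomial intervals. Cluster 84 was highest in TSF day 16 at 25.9%, and cluster 49 was lowest there at 14.9%.

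In the authors' finer sub-clusters, the 3 day 11 libraries overlapped more with each other than with either day 16 library, and the overlap of the day 16 libraries with each other was within the range seen between days. These sub-clusters came from a second clustering and crossed the borders of the initial clusters. Monocytes were spread over 34 sub-clusters, of which 16 held at least 25 monocytes and together 72.8% of them. The overlap of 2 libraries, taken as the summed smaller share over sub-clusters, was 81.2% between TSF day 11 a and b and 77.5% and 77.7% between CM day 11 and these libraries. Between libraries of different days it was 41.2% to 51.6%, and between CM and TSF at day 16 it was 49.4%. Over the initial clusters, all pairs of libraries overlapped by 79.5% to 93.7%. Overlap is lower over more groups by construction, small libraries overlap less by sampling alone, and CM day 16 had only 84 monocytes.

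The sub-clusters named next were chosen after their values were seen, for being nearly absent from 1 day or held by 1 library. Sub-cluster C.10 held 29 monocytes, 21 of which lay in initial cluster 84 and the others in cluster 9. Of these monocytes, 27 came from TSF day 16, 1 from CM day 16 and 1 from TSF day 11 a. The sub-cluster made up 15.5% of the TSF day 16 monocytes (10.5% to 21.8%). A group held 93.1% by 1 library may be that library rather than a kind of monocyte. The TSF day 16 ratios of cluster 84 given above include monocytes of C.10 and were not computed without them. Sub-cluster C.22, with 30 of 43 monocytes in cluster 84, held 11, 5 and 3 monocytes in CM day 11 and TSF day 11 a and b, 3 in CM day 16 and 21 in TSF day 16. Other sub-clusters were held mainly by day 11. Sub-cluster C.14, with 39 of 45 monocytes in cluster 49, held 11, 22 and 12 monocytes in the day 11 libraries and none in either day 16 library, where 0 cells allow shares of up to 3.57% in CM and 1.72% in TSF. Sub-cluster C.38, with 29 of 37 monocytes in cluster 84, held 13, 14 and 9 monocytes at day 11, 1 in CM day 16 and none in TSF day 16.

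The monocytes of cluster 49 had the fewest UMIs, and the median over all monocytes was higher at day 16 than at day 11. Over all libraries, the median was 1829.5 UMIs per monocyte in cluster 49 and 4099 to 4896 in the other 4 clusters. All monocytes had medians of 3868 UMIs in CM day 11, 3644.5 and 3260.5 in TSF day 11 a and b, 4656.5 in CM day 16 and 4973.5 in TSF day 16. Both day 16 libraries were above all 3 day 11 libraries, by 1.20 times in CM and 1.44 times in TSF. In CM the intervals of the medians overlapped, at 3501 to 4211 for day 11 and 3635 to 5152 for day 16. Outside cluster 49 the medians were 4296, 3935 and 4195 at day 11 and 5152 and 5274 at day 16, or 1.20 times in CM and 1.30 times in TSF. Within single clusters the ratio was below 1 in cluster 49 in TSF (0.958) and in cluster 146 in CM (0.949). It was above 1 in all other cases. The same direction was seen over all annotated cells without granulocytes. Their medians were 2189 to 2287 UMIs at day 11, and 2788 in CM and 2603 in TSF at day 16. In the class, Alv Macro was 1.64 times as deep at day 16 in CM and 1.50 times in TSF. The part of this depth of the libraries in the monocyte values was not tested. Fewer transcripts per cell and less complete capture cannot be told apart in these counts.

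The number of genes detected followed the UMIs. Median genes per monocyte were 1467 in CM day 11, 1382 and 1279.5 in TSF day 11 a and b, 1754 in CM day 16 and 1798 in TSF day 16. Among monocytes of 3000 to 5000 UMIs only, the medians were 1479, 1476 and 1461.5 at day 11 and 1630 and 1664 at day 16. The day 16 monocytes thus had more genes within this range as well, although their median UMIs within it were also 1.04 times as high in CM and 1.07 times in TSF. CM and TSF of the same day differed by 1.02 times at day 16 on this measure.

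The share of mitochondrial transcripts, a common sign of cell stress or damage, was highest in TSF day 16. Its median was 1.57% in CM day 11, 1.56% and 1.69% in TSF day 11 a and b, 1.29% in CM day 16 and 1.94% in TSF day 16. TSF exceeded CM 1.50-fold at day 16, with intervals of the medians of 1.79% to 2.10% and 1.17% to 1.43% that did not overlap. At day 11 the ratio was 1.04. The TSF over CM ratio at day 16 was 1.62 in cluster 9, where the intervals of the medians lay apart. In cluster 84 it was 1.76, in cluster 42 1.41 and in cluster 49 1.23, with intervals of the medians that overlapped in all 3. Outside the monocytes the ratios were 1.30 in Alv Macro, 1.18 in M2 Macro and 1.47 in M1 Macro/DC. Few monocytes had over 5% mitochondrial transcripts, 2.38% of them in CM day 16 and 4.02% to 4.39% in the other libraries.

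**Figure D5:**
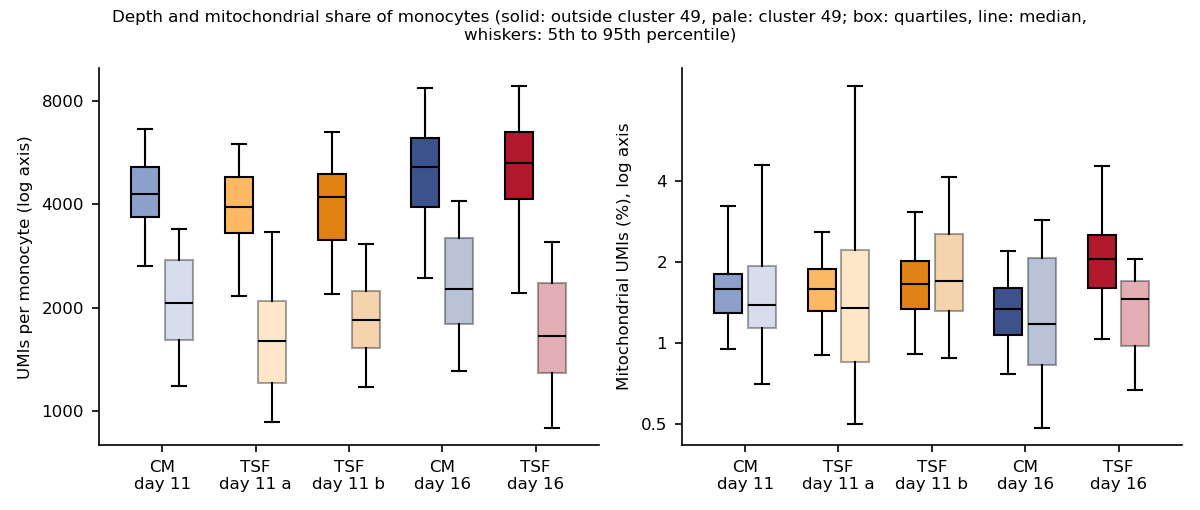
UMIs per monocyte (left) and percent of mitochondrial UMIs (right), both on log axes, by library, for monocytes outside cluster 49 (solid) and in cluster 49 (pale). Boxes span the quartiles with a line at the median. Outside cluster 49, median UMIs were 3935 to 4296 at day 11 and 5152 and 5274 at day 16, and the median mitochondrial share was highest in TSF day 16 at 2.06%.

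Signals that recruit or sustain monocytes were looked up in the cancer cells of day 16, of which 139 came from TSF and 29 from CM lungs. The values are shares of cancer cells with a UMI and the authors' mean CP10k, which is a gene's UMIs scaled to a fixed number of UMIs per cell. Of the 8 genes on the list, 4 were detected in a larger share of TSF cancer cells, 2 in a larger share of CM cancer cells and 2 in none. For none of the 8 did the intervals of the 2 shares lie apart, but with 29 CM cells these intervals were wide. The counts were not set against those of all genes, so they do not tell this list from any other. Ccl2 (chromosome 11, 82035571 to 82037453, GRCm38), the ligand of Ccr2, had a UMI in 17 TSF cells (12.2%, 7.29% to 18.9%) and in 1 CM cell (3.45%). Csf1 (chromosome 3, 107741048 to 107760469), the growth factor that macrophages and their precursors need, was the most widespread, in 80.6% of TSF and 72.4% of CM cancer cells, with means of 1.17 and 1.85 CP10k. The share and the mean of Csf1 therefore pointed in opposite directions.

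Cx3cl1 (chromosome 8, 94772009 to 94782427), the ligand of Cx3cr1, was detected in 46.0% of TSF and 58.6% of CM cancer cells, at means of 0.304 and 0.859 CP10k. Il34 (chromosome 8, 110741829 to 110805924), which shares a receptor with Csf1, was detected in 21.6% and 41.4%. Csf2, a growth factor for myeloid cells, was detected in 15.8% and 10.3%. Ccl7, another ligand of Ccr2, was found in 2 TSF cells and no CM cell, and the related chemokines Ccl8 and Ccl12 in no cell, which allows shares of cells with a UMI of up to 2.16% in TSF and 10.3% in CM. Of the monocyte markers, Ly6c2 had a UMI in 20 TSF cancer cells (14.4%, 9.02% to 21.3%) and 2 CM cells. The TSF shares of Ccl2 and Csf2 both lay inside that interval, but above the TSF shares of the other markers. These were rarer, with Ccr2 in 1 TSF and 0 CM cells, Plac8 in 0 and 1 and Cx3cr1 in 9 and 1. Median depths of these cancer cells were 26615 UMIs in TSF and 27679 in CM. Other lung cells that make these signals were not analysed here.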

How the data were processed

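Lungs were dissociated, 3 mice were pooled per group, and 5' 10x Genomics libraries were made. Per the labels and the study's methods, the authors mapped reads with Cell Ranger to mm10 (GRCm38) plus CD90.1, corrected ambient RNA with a customised SoupX, removed shallow or mitochondria-rich cells, clustered cells and named types by hand. Seurat 4.1.0 is named in the submitters' processing notes. The deposited cell table gives the UMI count and gene count of each cell, the percent of mitochondrial UMIs, map coordinates (a score without unit), clusters, class and type. Its shallowest cell had 800 UMIs, the lowest number of genes was 202, and the highest mitochondrial share was 9.99%. It also held 2 libraries with no sample here, which were not used. For the day 16 cancer cells, the deposited gene table gives the authors' mean CP10k and the number of cells with a UMI. Its fold changes, p-values and scores, and the table of enrichment scores, hold the authors' own comparisons and were not used.

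Shares have exact Clopper-Pearson intervals, ratios of shares and monocytes per cell of another type conditional intervals, and medians order-statistic intervals, all at the 95% level and for counting error only. Those of ratios of shares treat counts as rare, and are wider than needed within the class or among monocytes, where shares are large. TSF day 11 is the mean of libraries a and b, with intervals from their pooled counts. Where a count was 0, the limit is 3 counts of the total. Interval coverage was simulated only for ratios of small shares of whole libraries and for monocytes per cell of another type. It was not simulated for single shares, larger shares or medians. Doublets were those the authors had marked, and no caller was run. Detection of genes in cancer cells was not thinned to 1 depth or set against cells expected to lack them, which was not analysed here. Named genes were the 4 monocyte markers and 8 attractants and growth factors. Members and lists were chosen with earlier results of these data known. Gene coordinates came from GENCODE M21 (GRCm38). Computation used scipy 1.17.1, pandas 2.3.3 and numpy 2.4.6 under Python 3.11.15, and plots matplotlib 3.10.9.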

Additional observations from a re-analysis of the deposited data

Results flagged for a closer look

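For 8 of 11 measures of the monocytes, TSF lay on one side of CM in both day 11 libraries and on the other side at day 16. These differences between days were not tested, since each group was 1 sample. Libraries a and b were both set against the same CM day 11 library and may come from 1 pool, and the measures overlap, so that their number carries no weight of its own. Values are the log2 ratio of TSF over CM at day 16 minus the mean of that of libraries a and b at day 11. The monocyte share differed by 0.74 over all annotated cells and by 1.14 with granulocytes left out. Among the initial clusters, as shares of monocytes, cluster 84 differed by 1.17, cluster 146 by 1.35, cluster 9 by 0.20 and cluster 42 by -0.59. Cluster 146 rests on 2 and 5 monocytes at day 16. At day 11, the intervals of TSF over CM held 1 for the monocyte share on both denominators and for each of these clusters. At day 16 they held 1 for clusters 9, 42 and 146. The median UMIs per monocyte differed by 0.26 and the median genes by 0.18, and the day 16 ratios of these 2 medians were 1.07 and 1.03. For both, the intervals of the CM and TSF medians at day 16 overlapped.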

How the results depend on the processing

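Of 65 alternative values, 52 moved by less than the counting error, 13 moved by more and none turned a share whose interval lay off 1. The monocyte share in TSF over CM at day 16 was 2.00 with granulocytes left out, 2.07 with cancer cells also left out, 1.99 among immune cells without granulocytes and 2.17 among cells of at least 2000 UMIs without granulocytes. The day 16 over day 11 ratio in TSF was 0.668 among all immune cells, and 1.14, 1.18, 1.12 and 1.10 with those 4 denominators in the same order. The last 2 of them were chosen after seeing the data, as were counting the doublets and unknown cells of the monocyte clusters as monocytes and leaving out cluster 49. With the minimum of 2000 UMIs, monocytes of TSF day 11 a and b had medians of 3925 and 3867.5 UMIs and 1467 and 1433 genes. Leaving out replicate a or b gave TSF over CM ratios at day 11 of 0.846 and 0.964, and day 16 over day 11 ratios in TSF of 0.908 and 0.797. The interval of TSF over CM at day 16 lay above 1 in 10 of 11 alternatives, and that of day 16 over day 11 in CM lay below 1 in all 11. Many of these alternatives count the same monocytes of the same libraries over overlapping denominators, so their number carries no weight of its own. No paired analysis was possible, since each group was 1 sample and no samples were paired. The number of cells limits the intervals of CM day 16, which held 84 monocytes.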
